A study of Saccharomyces cerevisiae with 15 samples.

Results

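The 2 groups compared were low density cells of a Saccharomyces cerevisiae strain that had lost its mitochondrial DNA, called Rho0, and low density cells of the wild type (WT). The comparison took all 5 Rho0 low density arrays and all 5 WT low density arrays, chosen by their titles, 10 of the 15 arrays in the study, and covered 5449 S. cerevisiae genes. Both groups were strain BY4741, a laboratory strain, haploid and of mating type a, with deletions in HIS3, LEU2, MET17 and URA3, so the WT cells carry those deletions too. Both grew in YPD, a rich medium of yeast extract and peptone, with 2% glucose at 30 °C, received no treatment and were taken on day 3. The density classes were separated on a Percoll gradient, a medium in which cells settle by their buoyant density. The remaining 5 arrays were high density WT cells, whose levels are given beside some results. The titles call the arrays biological replicates. How the mitochondrial DNA was removed, whether Rho0 was 1 clone and where the density classes were split are not given in the sources used here. Each array measured 100 ng of total RNA on an Affymetrix Yeast Genome 2.0 array.

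Yeast mitochondrial DNA encodes a handful of subunits of cytochrome bc1, cytochrome c oxidase and ATP synthase and part of the mitochondrial ribosome. Cells without it cannot respire and live on fermentation. In glucose medium a respiring culture first ferments glucose to ethanol, then oxidizes the ethanol after the diauxic shift with enzymes that include alcohol dehydrogenase, the glyoxylate cycle and the respiratory chain, while a culture without respiration leaves the ethanol unused. Loss of mitochondrial function is known to alter nuclear transcription through the retrograde (RTG) pathway, the Hap and Rox1 regulators, which respond to heme, and the drug resistance regulator Pdr3.

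Values are the authors' log2 signals, each difference is Rho0 low density minus WT low density on the log2 scale with its standard error (SE), and a gene was called when its limma p, adjusted by Benjamini-Hochberg over 5449 genes, was under 0.05. The label Rho0 could not be checked against mitochondrially encoded genes, since none of the 16 looked for is named in the annotation. The mating type label could be checked in part: STE2, the alpha-factor receptor that a cells carry, stood at 7.45 ± 0.27 and 7.77 ± 0.06 in Rho0 and WT low density (mean ± SD, n = 5), and of 4 genes specific to alpha cells MF(ALPHA)1, an alpha-factor gene, lay under the background level of 2.56 in both. The other 3 were above it in both groups, with SAG1, alpha agglutinin, at 9.34 ± 0.19 and 8.97 ± 0.24, so these genes do not settle the label. The mean level of the 4 ran from 4.28 to 4.55 in Rho0 and from 4.42 to 4.85 in WT low density arrays. Array control probe sets also differed between the groups. The probe set at the 5′ end of 25S ribosomal RNA read 7.75 ± 0.27 in Rho0, 11.36 ± 0.45 in WT low density and 7.87 ± 0.13 in WT high density. In the same order, the middle one read 13.28 ± 0.15, 14.17 ± 0.04 and 10.99 ± 0.32. The one at the 3′ end read 14.24 ± 0.02, 14.16 ± 0.02 and 13.94 ± 0.14. Rho0 and WT low density differed at all of these (exact permutation test, two-sided, p = 0.00794 for each, the smallest that 5 against 5 arrays allow, and 0.00926 adjusted over 7 control measures). The poly-A spike-in probe sets were lower by 0.68 in Rho0, with the same exact p, and the median difference over all genes was 0.25. Scaling the arrays to the spike-ins therefore adds 0.68 to every difference and puts that median at 0.94. Counts on that scale are given below as spike-in scaled. The part of these control differences in the results was not tested. The total RNA per cell was not measured, and fewer cells with a transcript and less of it per cell cannot be told apart in such bulk samples. The 3 probe sets along the ACT1 transcript differed by 2.15 (3′), 2.34 (middle) and 2.44 (5′), and those along RIP1 by -1.75, -1.76 and -2.20, so either direction was read from all parts of these transcripts. Other transcripts did not read alike: SRB4 differed by 1.83 at 3′, 0.23 in the middle and -0.24 at 5′, with levels under background in both groups in the middle and at 5′, and EAF5 by -0.05 at 3′ and 0.67 in the middle.

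Of 5449 genes, 3665 were called (67.3%): 2430 higher in Rho0 (44.6%) and 1235 lower (22.7%). The arrays of both groups did not overlap for 57.2% of genes. The falls reached further than the rises: 174 genes fell at least 4-fold (3.19%) and 110 rose at least 4-fold (2.02%), and past 16-fold there were 19 falls (0.349%) and 1 rise (0.0184%). The 174 genes that fell at least 4-fold had a median level of 6.0 in Rho0, against 8.78 in WT low density and 8.01 in WT high density. The 110 genes that rose at least 4-fold had a median level of 7.68 in Rho0, 5.35 in WT low density and 5.27 in WT high density. The distance between Rho0 and WT low density in these sets was fixed by how they were picked. Over all genes, 242 had a mean above background only in Rho0, and 63 only in WT low density. The scatter of the group means shows this spread around the diagonal.

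**Figure D1:**
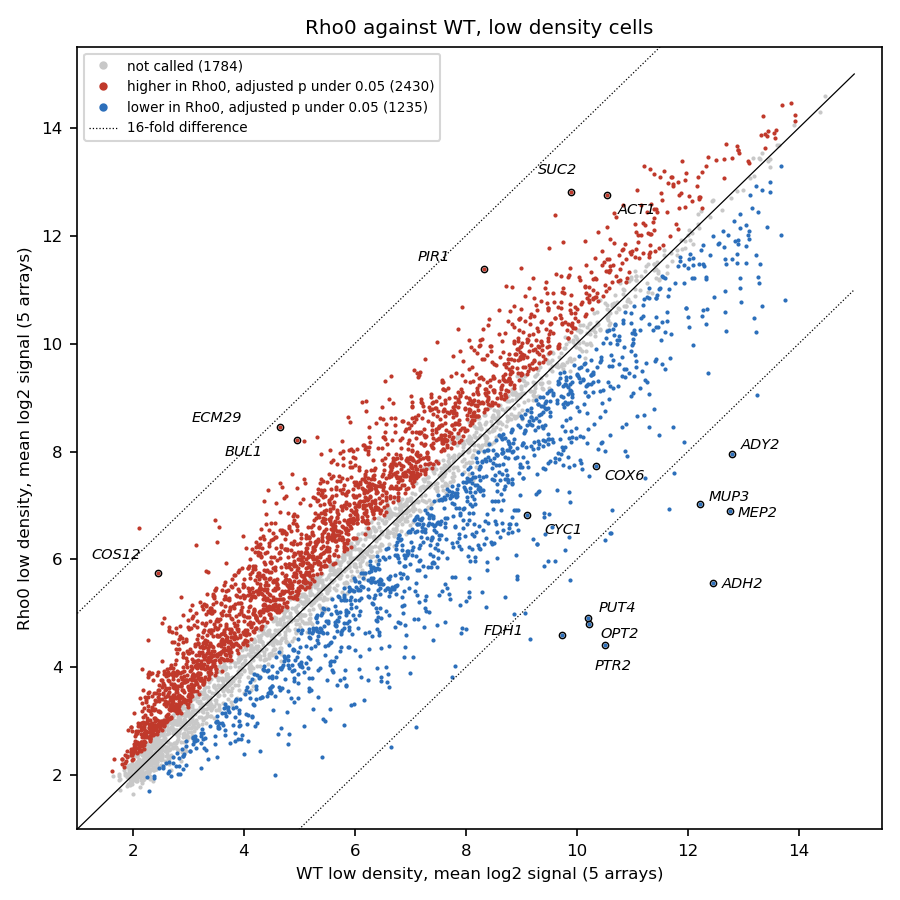
Mean log2 signal of each of 5449 genes in WT low density (x axis) and Rho0 low density (y axis), 5 arrays each, with called genes coloured by direction. ADH2, PTR2, MEP2 and other transporter and ethanol genes lie below the lower dotted line, which marks a 16-fold fall, and ECM29 and BUL1 lie near the upper one.

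Genes for the use of ethanol and acetate held the largest fall of all. ADH2, the alcohol dehydrogenase that oxidizes ethanol, read 5.12, 5.60, 5.86, 5.58 and 5.68 in the Rho0 arrays and 12.36, 12.24, 12.51, 12.65 and 12.52 in the WT low density arrays. Every WT array lay above every Rho0 array, by the widest margin of the genes named here, and the WT high density mean was higher still (13.78 ± 0.08). FDH1, formate dehydrogenase, read 4.66, 4.67, 4.73, 4.39 and 4.53 in Rho0 and 9.79, 9.49, 9.71, 9.83 and 9.82 in WT (-5.13 ± 0.13). ADY2, the acetate permease, differed by -4.85 ± 0.14, and JEN1, the lactate and pyruvate permease, by -2.08 ± 0.11. FBP1, the fructose bisphosphatase of gluconeogenesis, differed by -3.88 ± 0.17 and MLS1, the malate synthase of the glyoxylate cycle, by -2.74 ± 0.19. The fall did not extend to all partners of these enzymes. ICL1, isocitrate lyase, which acts one step before malate synthase, read 8.13 ± 0.09 in Rho0 and 8.30 ± 0.28 in WT, and ACS1, an acetyl-CoA synthetase, 11.44 ± 0.16 and 11.62 ± 0.21. Neither was called (limma adjusted p = 0.276 and 0.241), though both were called higher spike-in scaled and lower with arrays centred on the median of all genes. Of the regulators, CAT8, which activates gluconeogenic genes, rose by 1.05 ± 0.13 (0.27 and not called with arrays centred by coding length). ADR1, which activates ADH2 and peroxisomal genes, differed by 0.13 ± 0.15 and was not called. It was called higher spike-in scaled and lower with arrays centred by coding length.

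The median difference of a list of 21 genes, ADR1 and those that depend on it, was -0.67 against 0.25 for all genes. Of the 21 genes 11 fell and 4 rose (10 fell and 8 rose spike-in scaled). Besides ADH2, FDH1 and ADY2 they include POX1, the oxidase that opens peroxisomal fatty acid oxidation (-3.73 ± 0.12), and CTA1, the peroxisomal catalase (-3.62 ± 0.19). GUT1 and GUT2, which use glycerol, stood at -0.13 and -0.02 and were not called, though GUT1 was called higher spike-in scaled and lower with arrays centred on the median of all genes. Of 21 genes of the glyoxylate cycle and gluconeogenesis 10 fell and 3 rose, a balance that turned to 4 and 10 spike-in scaled. Of 23 genes of fatty acid oxidation and the peroxisome 13 fell and 5 rose, which likewise turned, to 6 and 9.

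Subunits of the respiratory chain fell more often than they rose, with isoforms of 2 of them going opposite ways. COX6, a subunit of cytochrome c oxidase, read 8.11, 7.51, 7.68, 7.75 and 7.57 in Rho0 and 10.71, 10.81, 10.20, 9.96 and 10.05 in WT low density, and the groups did not overlap. CYC1, the main cytochrome c, read 6.96, 6.81, 6.92, 6.77 and 6.63 in Rho0 and 10.01, 9.49, 8.76, 8.73 and 8.55 in WT low density. Its WT arrays were widely spread and still lay above every Rho0 array (-2.29 ± 0.27). The isoform gene CYC7, which is induced when oxygen is low, went the other way, at 13.06 ± 0.05 in Rho0 and 12.65 ± 0.15 in WT (0.42 ± 0.15), and was not called with arrays centred on the median of all genes (0.15). The same split appeared in subunit 5 of cytochrome c oxidase. COX5A, the aerobic form, read 10.71, 11.36, 11.33, 11.32 and 11.47 in Rho0 and 13.34, 13.33, 13.16, 13.20 and 13.27 in WT (-2.03 ± 0.13), without overlap, whereas COX5B, the hypoxic form, read 9.74, 9.34, 9.39, 9.50 and 9.19 and 8.67, 8.91, 8.67, 8.61 and 8.65 (0.73 ± 0.15).

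Of 11 genes of cytochrome c and its oxidase 9 fell and 2 rose, with a median difference of -0.86 (5 fell and 2 rose spike-in scaled). CYC7 and COX5B were the ones that rose. Of 9 genes of the cytochrome bc1 complex 7 fell and none rose, with a median of -1.10 (4 and 1 spike-in scaled). RIP1, the iron-sulfur subunit, led them at -1.73 ± 0.17, while CYT1, cytochrome c1, stood at 0.35 and was not called (higher spike-in scaled). In ATP synthase 8 of 17 genes fell and 3 rose, and the balance turned to 3 and 5 spike-in scaled. The falls were led by ATP17 (-2.13 ± 0.11), a subunit of the membrane part, and by INH1 (-1.70 ± 0.12), the inhibitor of ATP hydrolysis. The rises were those of ATP1 (0.89 ± 0.17), a subunit of the catalytic part, and of STF1 and STF2 (1.21 ± 0.14 and 1.19 ± 0.14), which act with the inhibitor. Of 7 succinate and NADH dehydrogenase genes 4 fell and 1 rose (2 and 3 spike-in scaled), with SDH2, the iron-sulfur subunit, at -1.71 ± 0.29 and NDE1, the external NADH dehydrogenase, at -1.63 ± 0.14. Against WT high density, the median differences of these lists, in the order given, were -0.28, 0.14, 0.06 and 0.21 in Rho0. In WT low density they were 1.05, 0.90, 0.50 and 0.71.

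Genes for assembling cytochrome c oxidase and for making coenzyme Q, the electron carrier of the chain, went the other way. Of 24 genes for the assembly of cytochrome c oxidase 17 rose and 2 fell (median 0.88, and 19 and 0 spike-in scaled). COX17, the copper chaperone of the oxidase, was higher by 1.82 ± 0.15, and PET54, which activates translation of a mitochondrially encoded subunit, by 1.82 ± 0.17. Of 11 genes of coenzyme Q synthesis 10 rose and COQ2 alone fell (-1.0 ± 0.18, not called spike-in scaled), with COQ8 highest at 1.72 ± 0.16. The median was 0.95, and the count spike-in scaled was 10 and 0. The plot of the respiratory genes shows the subunits mostly left of 0 and the assembly and coenzyme Q genes mostly right of it.

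**Figure D2:**
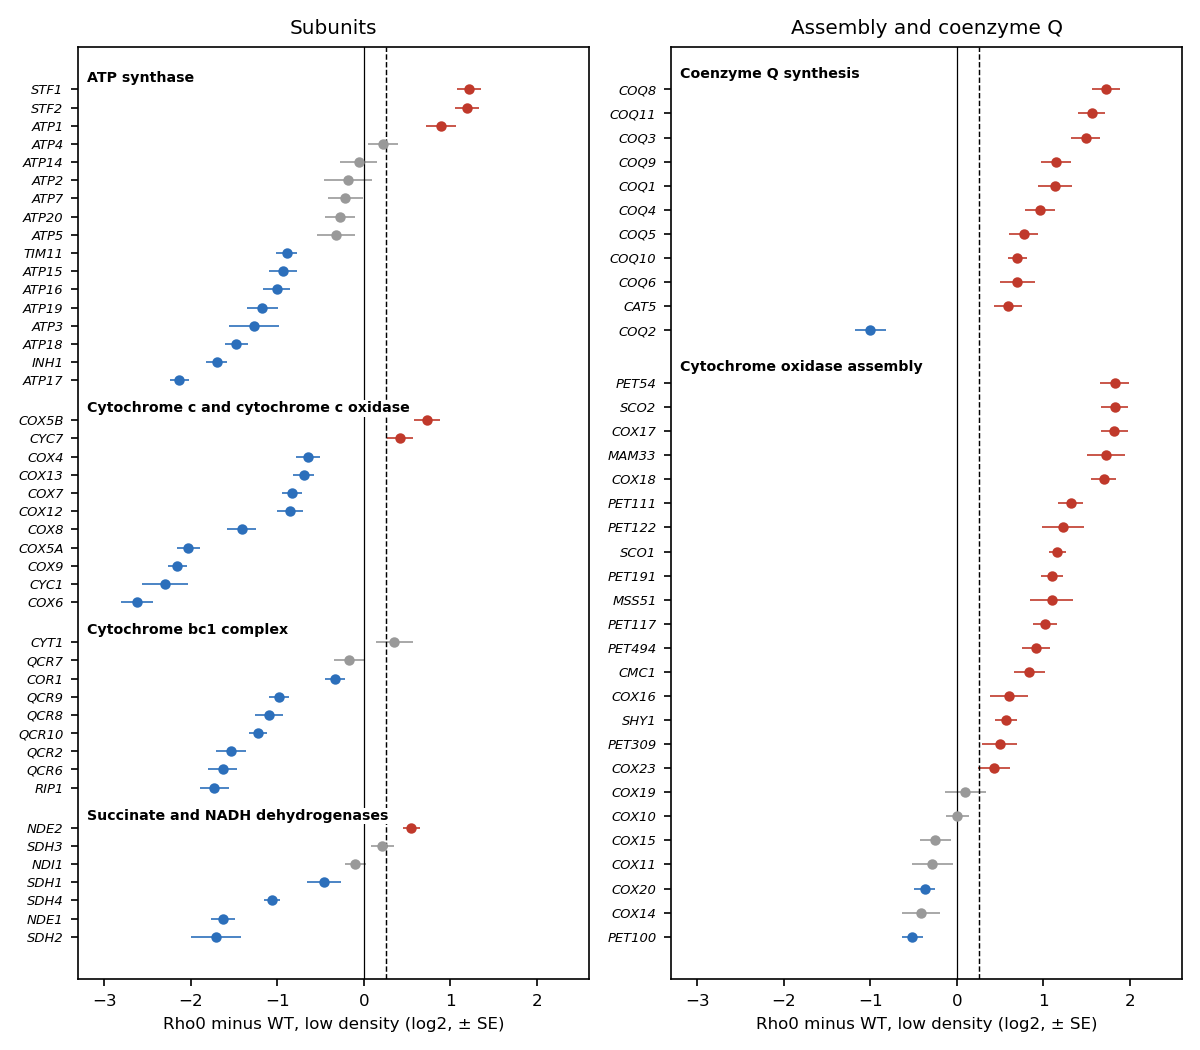
Difference between Rho0 and WT low density (log2, point, with its SE as a bar) for the measured subunits of the respiratory chain and ATP synthase (left) and for cytochrome oxidase assembly and coenzyme Q genes (right), where red marks called rises, blue called falls and grey genes not called. The dashed line marks the median of all genes at 0.25. Adding 0.68, as spike-in scaling does, gives 5 ATP synthase and 3 dehydrogenase genes as called rises in place of 3 and 1.

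Other genes for the mitochondrial genome and its expression were higher in Rho0, although the genome itself is absent by the label. Of 17 genes for maintaining or transcribing mitochondrial DNA 11 rose and 1 fell, with a median of 0.50. They include ABF2, which packages mitochondrial DNA (1.08 ± 0.21), MIP1, its polymerase (0.88 ± 0.16, but 0.10 and not called when centred by coding length), and RIM1, which binds its single strands (1.19 ± 0.25). With the arrays centred on a common median within 10 classes of coding length the count was 5 rises and 3 falls. Of 73 genes for mitochondrial ribosomal proteins 50 rose (68.5%) and 8 fell, against 44.6% and 22.7% of all genes. The median was 0.65, and MRPL32 was highest, with 8.64, 8.39, 8.55, 8.82 and 8.77 in Rho0 and 5.45, 5.83, 6.13, 5.87 and 6.08 in WT low density. Its WT high density mean was 5.87 ± 0.58. Of 34 genes for import into mitochondria 20 rose (58.8%) and 4 fell (11.8%), against the same 44.6% and 22.7% of all genes. The median was 0.42, against 0.25 for all genes. SAM50, of the outer membrane sorting machinery, rose by 1.53 ± 0.22, whereas TIM21, which links the inner membrane translocase to the respiratory chain, was lower (-2.85 ± 0.17).

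The tricarboxylic acid cycle genes showed no common direction, with 5 of 16 higher and 6 lower (9 and 3 spike-in scaled). KGD2, of the oxoglutarate dehydrogenase, and ACO1, aconitase, were lower (-1.26 ± 0.14 and -0.87 ± 0.24, the latter not called spike-in scaled), and IDH2, of isocitrate dehydrogenase, was higher (0.89 ± 0.25). The retrograde pathway carries signals from mitochondria to the nucleus and is classically active in Rho0 cells. CIT2, the peroxisomal citrate synthase and its standard reporter, read 13.62, 13.51, 13.55, 13.49 and 13.52 in Rho0 and 12.98, 12.83, 13.07, 12.91 and 12.81 in WT low density. The groups of CIT2 differed by 0.62 ± 0.11, a 1.54-fold rise (limma adjusted p = 8.67e-05). Of 9 targets 5 rose and 4 fell, with DLD3, a D-lactate dehydrogenase gene induced by the pathway, lower (-1.25 ± 0.17). With the arrays centred by coding length the balance was even, at 4 and 4. RTG1, RTG2 and RTG3, the regulators themselves, were not called, although RTG1 was without WT low density replicate 1 or 4 (limma adjusted p = 0.0296 and 0.0272) and RTG2 without Rho0 replicate 3 (0.0284).

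**Figure D3:**
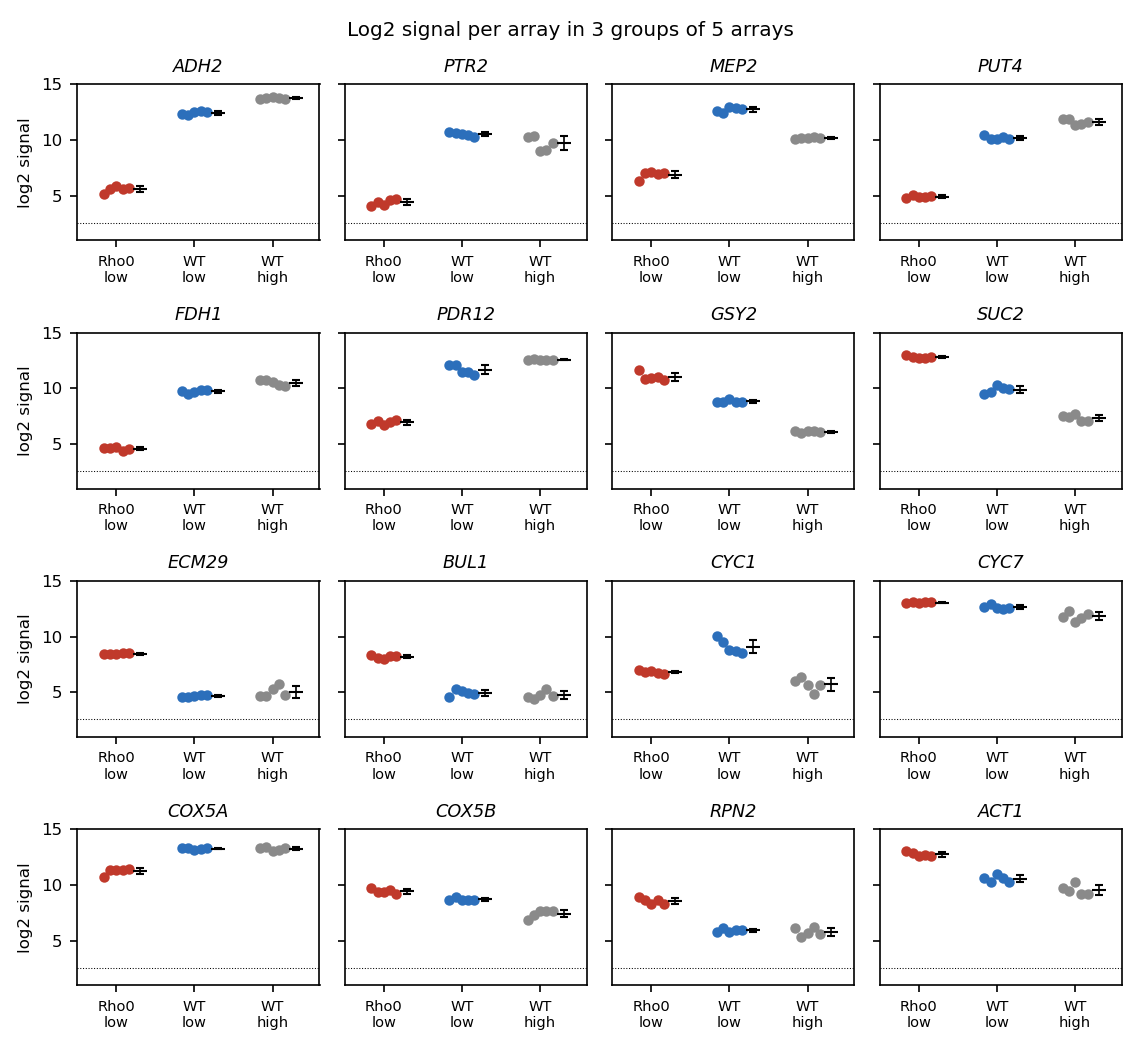
Log2 signal of 16 genes in each array of Rho0 low density, WT low density and WT high density (coloured points, 5 per group), with the group mean and SD as a bar and the background level of 2.56 as a dotted line. The Rho0 points of ADH2, PTR2, MEP2, PUT4, FDH1 and PDR12 lie below those of both WT groups, and those of GSY2, SUC2, ECM29, BUL1, RPN2 and ACT1 above both.

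All the ammonium permeases, and most amino acid permeases, were lower in Rho0. MEP2, the permease that also senses ammonium, read 6.33, 7.03, 7.10, 6.94 and 7.06 in Rho0 and 12.62, 12.48, 12.97, 12.92 and 12.78 in WT low density (-5.86 ± 0.14). MEP1 and MEP3 differed by -3.73 ± 0.14 and -3.76 ± 0.15, and no array of one group reached the other for any of the 3. Enzymes that assimilate ammonium were lower as well, with GLN1, glutamine synthetase, at -3.52 ± 0.26 and GDH1, a glutamate dehydrogenase that makes glutamate, at -2.90 ± 0.20. GDH2, the dehydrogenase that degrades glutamate, was the 1 gene of this list that rose (1.21 ± 0.14). In all 8 of 10 genes fell, with a median of -2.65 (8 fell spike-in scaled).

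Of 29 amino acid permease genes 21 fell (72.4%) and 2 rose, against 22.7% and 44.6% of all genes, and the spike-in scaled count was 14 and 8. PUT4, the proline permease, read 4.79, 5.11, 4.89, 4.86 and 4.96 in Rho0 and 10.42, 10.08, 10.10, 10.25 and 10.14 in WT low density. MUP3 and MUP1, the low and high affinity methionine permeases, differed by -5.18 ± 0.16 and -3.0 ± 0.11, AGP1, a broad permease, by -4.19 ± 0.14 and GAP1, the general permease, by -2.05 ± 0.12. The fall therefore covered permeases that yeast uses on rich nitrogen sources, such as AGP1, and on poor ones, such as PUT4 and GAP1. PTR2, the peptide permease, read 4.06, 4.47, 4.18, 4.63 and 4.68 in Rho0 and 10.73, 10.63, 10.51, 10.45 and 10.27 in WT low density, and OPT2, an oligopeptide transporter gene, differed by -5.42 ± 0.16. In their list of peptide transport and amino acid sensing genes 5 of 11 fell and 2 rose, with a median of -0.14 (3 and 6 spike-in scaled). DAL5, the allantoate and dipeptide permease, stood at -0.12 and was not called (higher spike-in scaled, lower centred on the median of all genes), so the fall did not cover every target of nitrogen catabolite repression. Of 24 genes in a list of such targets and regulators of the repression 12 fell and 4 rose, which turned to 6 and 11 spike-in scaled.

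Sulfur assimilation and methionine synthesis followed the methionine permeases, with 16 of 24 genes lower and 2 higher (median -0.83, 10 and 9 spike-in scaled). SAM1 and SAM2, the S-adenosylmethionine synthetases, differed by -3.41 ± 0.13 and -2.71 ± 0.22, and MET2, which makes O-acetylhomoserine, by -2.92 ± 0.22. Other amino acid synthesis genes were divided, 19 of 52 lower and 15 higher (9 and 28 spike-in scaled). CPA1, of arginine synthesis, and ILV3, of isoleucine and valine synthesis, were lowest (-3.11 ± 0.29 and -2.81 ± 0.12). GCN4, the activator of these genes, was itself higher (0.73 ± 0.18).

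Genes for storage sugars and for sugars other than glucose rose in Rho0, while the hexose transporter list did not. SUC2, the invertase that splits sucrose and is repressed by glucose, read 13.0, 12.79, 12.72, 12.72 and 12.79 in Rho0, 9.49, 9.65, 10.34, 10.04 and 9.96 in WT low density and 7.53, 7.42, 7.68, 7.05 and 7.09 in WT high density. The 3 groups did not overlap, and Rho0 was highest. HXK1, a hexokinase, differed by 1.74 ± 0.20, and the polyol and hexose transporter HXT13 by 2.95 ± 0.18. HXT1, the low affinity transporter induced by high glucose, was lower (-2.0 ± 0.15). HXT7, a high affinity one, was not called (0.04 ± 0.09), though it was called higher spike-in scaled. Of 18 genes of the transporter list, which includes glucose sensors, 9 fell and 3 rose, which turned to 4 and 8 spike-in scaled. DSF1, a mannitol dehydrogenase gene next to HXT13, was higher by 2.28 ± 0.11, although its probe set can also bind related sequences. Of 19 genes for the use of sugars and polyols outside glycolysis and for its regulation 12 rose and 1 fell (10 and 6 centred by coding length).

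GSY2, the main glycogen synthase, read 11.63, 10.89, 10.93, 11.06 and 10.74 in Rho0 and 8.78, 8.80, 9.04, 8.80 and 8.75 in WT low density (2.22 ± 0.14), and the groups did not overlap. GDB1, the debranching enzyme that breaks glycogen down, rose too, by 1.53 ± 0.20, as did TPS1, trehalose phosphate synthase, by 0.94 ± 0.20. In all 16 of 19 trehalose and glycogen genes rose and 3 fell, both for synthesis and breakdown (10 and 3 centred by coding length). Of 20 glycolytic genes 14 rose (70.0%) and PFK27 alone fell. PFK27 and PFK26, which both make the activator of phosphofructokinase, went opposite ways (-2.71 ± 0.21 and 1.12 ± 0.21). GPM2, a minor phosphoglycerate mutase, was highest at 2.71 ± 0.17. GPD1, which makes glycerol phosphate and is induced by osmotic stress, was higher by 2.0 ± 0.14, and its partner isoform GPD2 by 0.67 ± 0.17.

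**Figure D4:**
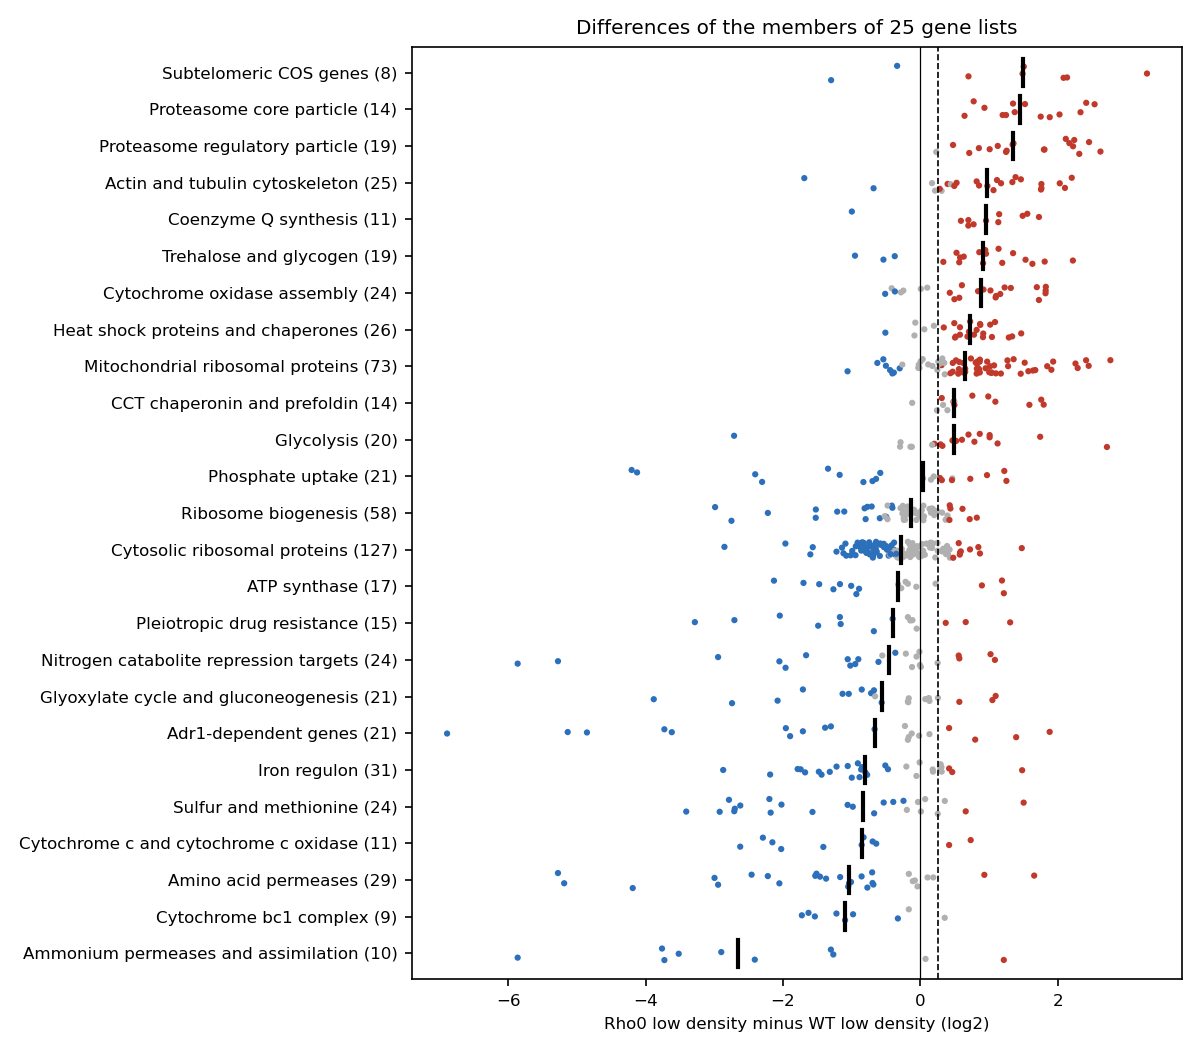
Difference between Rho0 and WT low density (log2) of each member of 25 gene lists, 1 point a gene, with the number of measured genes after each list name, the list median as a black bar and called rises in red and called falls in blue. The dashed line is the median of all genes at 0.25. Ammonium, cytochrome bc1 and amino acid permease genes lie at the low end and proteasome and COS genes at the high end, and spike-in scaling, which adds 0.68 to every point, carries the medians of the ribosomal protein, ATP synthase and nitrogen repression lists, among others, past 0.

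Proteasome genes rose nearly throughout. All 14 of 14 core particle genes and 18 of 19 regulatory particle genes were higher in Rho0, with medians of 1.45 and 1.35. Within the core the rise ran from 0.64 ± 0.17 for PUP2 to 2.53 ± 0.15 for PRE9, both alpha ring subunits. RPN2, a scaffold of the regulatory particle, read 8.87, 8.64, 8.24, 8.64 and 8.31 in Rho0, 5.79, 6.11, 5.77, 5.97 and 5.96 in WT low density and 6.16, 5.28, 5.64, 6.18 and 5.58 in WT high density. Neither WT group reached the Rho0 arrays. ECM29, which tethers core and regulatory particle, read 8.40, 8.42, 8.40, 8.52 and 8.52 in Rho0 and 4.59, 4.61, 4.63, 4.75 and 4.71 in WT low density, and its WT high density mean was 5.02 ± 0.50. Of 16 regulators and assembly factors of the proteasome 11 rose and 3 fell. BLM10, an alternative cap, UBP6, the deubiquitinase of the base, and UMP1 and PBA1, assembly chaperones, rose by 2.03 ± 0.12, 2.04 ± 0.13, 1.35 ± 0.14 and 1.94 ± 0.13. POC4, also a chaperone of core assembly, and SPG5, a regulator used in stationary phase, were lower (-0.46 ± 0.13 and -1.01 ± 0.11), although spike-in scaling turned POC4 to 0.22 and left SPG5 at -0.33, not called, and POC4 missed the threshold when centred by coding length. RPN4, the transcription factor that activates proteasome genes, did not rise with them and was lower, with 8.89 ± 0.14 in Rho0 and 9.43 ± 0.18 in WT low density, although spike-in scaling turned its difference from -0.54 to 0.15.

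Upstream of the proteasome, UBA1, the ubiquitin activating enzyme, was higher by 2.73 ± 0.16, and BUL1, an adaptor that brings the ubiquitin ligase Rsp5 to permeases such as Gap1, read 8.39, 8.10, 8.03, 8.26 and 8.26 in Rho0 and 4.57, 5.28, 5.15, 4.92 and 4.89 in WT low density. ALY2, another Rsp5 adaptor, rose by 1.65 ± 0.16. RAD6, a ubiquitin conjugating enzyme, was lower (-2.17 ± 0.15), and the polyubiquitin gene UBI4 stood at -0.21 ± 0.12 and was not called (0.47, higher, spike-in scaled). The ubiquitin list as a whole had 10 rises and 8 falls among 27, shares near those of all genes, and centring by coding length turned the balance (7 and 12). Of 26 heat shock protein and chaperone genes 21 rose (80.8%) and 1 fell, among them HSP82, the inducible Hsp90 (1.34 ± 0.16), HSP104, a disaggregase (1.09 ± 0.14), and HSP26, a small heat shock protein (0.78 ± 0.15). The chaperonin that folds actin and tubulin had 9 rises and no fall among 14 genes of its list, which holds prefoldin too, with CCT4 and TCP1 at 1.79 ± 0.16 and 1.76 ± 0.13. Of its clients ACT1, actin, and TUB2, beta tubulin, were higher by 2.20 ± 0.19 and 1.46 ± 0.16, whereas TUB3, an alpha tubulin named after its value was seen, was lower (-1.69 ± 0.13). Of 25 genes of the actin and tubulin cytoskeleton 19 rose and 2 fell, including TPM1, tropomyosin (2.10 ± 0.22), COF1, cofilin (1.76 ± 0.17), and ARC15, of the Arp2/3 complex (2.03 ± 0.16).

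Cytosolic ribosomal protein genes lay below the median of all genes and translation factor genes did not. Of 127 cytosolic ribosomal protein genes 57 fell (44.9%) and 9 rose (7.1%), with a median of -0.29, but spike-in scaled the balance turned to 7 and 52. Relative to the median of all genes, which such scaling does not alter, the list lay lower by 0.54 and mitochondrial ribosomal protein genes lay higher by 0.40. Of 127 probe sets in the list 25 may bind related genes, since many ribosomal protein genes come as near-identical pairs. IMP4 and RLP7, which act in ribosome assembly, were lower by wider margins (-2.99 ± 0.16 and -2.75 ± 0.16). The ribosome assembly list had 15 falls among 58 (25.9%), near the 22.7% of all genes, and 6 rises (6 and 31 spike-in scaled). Only 40 of its genes were above background, and its median levels, 2.75 in Rho0 and 2.82 in WT low density, lay close to the background of 2.56. Of 34 translation factor genes 16 rose (47.1%) and 5 fell, with a median of 0.25, the same as that of all genes, and 7 rose and 9 fell centred by coding length.

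Genes under the drug resistance regulators Pdr1 and Pdr3 are often reported as induced in Rho0 cells. Here PDR5, the main drug efflux pump, read 11.88, 11.94, 11.88, 11.94 and 12.10 in Rho0 and 13.14, 13.13, 13.07, 13.09 and 13.11 in WT low density (-1.16 ± 0.10), lower in Rho0. Of 15 genes of the list 8 fell and 3 rose (6 and 7 spike-in scaled). Against WT high density, the median difference of the list was 0.43 in Rho0 and 1.95 in WT low density. Its lower standing in Rho0 therefore holds against WT low density only. ICT1, a lysophospholipid acyltransferase gene, and RSB1, which exports sphingoid bases, were lowest (-3.28 ± 0.19 and -2.71 ± 0.13), YRR1, another regulator of drug pumps, was higher (1.31 ± 0.19), and PDR3 was not called (-0.06 ± 0.13, but 0.63 and called spike-in scaled). PDR12, the pump for weak organic acids, read 6.75, 7.08, 6.69, 7.02 and 7.18 in Rho0 and 12.11, 12.08, 11.45, 11.48 and 11.20 in WT low density. The groups of PDR12 did not overlap, and the WT high density mean was 12.58 ± 0.05.

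Genes of the iron regulon, for iron uptake, storage and use, were mostly lower, 19 of 31 against 3 higher (median -0.80), a balance that turned to 9 and 12 spike-in scaled while the median stayed below 0. SIT1, a siderophore transporter, and FTR1, the high affinity iron permease, differed by -2.87 ± 0.14 and -2.19 ± 0.15. FET3, the oxidase that works with Ftr1, did not follow (-0.20 ± 0.17, not called, but higher spike-in scaled and lower centred on the median of all genes). ROX1, the repressor of hypoxic genes whose own transcription needs heme, was lower (-2.65 ± 0.26). HAP4, the activating subunit of the Hap complex that drives respiratory genes, was higher by 0.71 ± 0.17, while HAP3, a DNA-binding subunit, was lower (-1.55 ± 0.14). In heme synthesis HEM1, the first enzyme, and HEM13, which uses oxygen and is repressed by Rox1, were lower (-1.92 ± 0.26 and -1.43 ± 0.17), and HEM4 was higher by 2.02 ± 0.13. Hypoxic genes were mixed: 12 of 22 rose (54.5%) and 5 fell (22.7%), shares near the 44.6% and 22.7% of all genes. Those that rose include ANB1, a translation factor isoform (1.08 ± 0.27), and TIR4, a wall mannoprotein (1.57 ± 0.22). Those that fell include OLE1, the fatty acid desaturase (-2.91 ± 0.12). ANB1 and its aerobic counterpart HYP2 rose alike (1.08 ± 0.11 for HYP2), and the pair are near-identical in sequence. Of 25 genes of sterol synthesis 15 rose (60.0%) and 5 fell (20.0%), beside 44.6% and 22.7% of all genes. Centred by coding length the count was 14 and 8. ERG11, the lanosterol demethylase, stood at 1.43 ± 0.19.

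Genes of phosphate uptake and its control had no common direction. PHO89 and PHO84, the sodium and proton coupled phosphate transporters, differed by -4.12 ± 0.17 and -2.40 ± 0.21, and PHO4, the activator of the phosphate response, by -2.30 ± 0.18. The list of 21 genes had 10 falls and 7 rises (6 and 11 spike-in scaled). Of 13 polyamine genes 8 fell and 2 rose, with a median of -0.61, a balance that turned to 3 and 5 spike-in scaled. The rises were those of PAA1, a polyamine acetyltransferase, and SPE2, which makes the aminopropyl donor (2.82 ± 0.18 and 1.46 ± 0.23). The falls were led by the exporters TPO2 and TPO3 (-1.95 ± 0.15 and -1.36 ± 0.28).

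At the cell surface and in the cell cycle, PIR1, a wall glycoprotein, and FLO11, the flocculin of surface adhesion, were higher (3.06 ± 0.10 and 1.93 ± 0.13), and the wall enzyme SCW10 and the mannoprotein CWP1 lower (-2.0 ± 0.16 and -2.11 ± 0.21). EGT2 and CTS1, which act when daughter cells separate, rose by 2.76 ± 0.14 and 1.72 ± 0.15. Of 39 cell cycle and replication genes 23 rose, CLB5, an S phase cyclin (2.03 ± 0.17), and CDC28, the cyclin-dependent kinase (1.80 ± 0.21), among them, and 2 fell. Centring by coding length left 12 rises and 11 falls in that list, so its direction depended on that choice. Of the 8 subtelomeric COS genes 6 rose and 2 fell, and 3 of the 8 had probe sets that may bind related genes. COS12, of a family that helps sort membrane proteins to the vacuole, was higher by at least 9.12-fold, since the WT low density mean lay under background.

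Transcripts used as references in quantitative PCR moved too. Of 10 such genes 7 rose and 2 fell. ALG9 alone was not called (0.06 ± 0.19), though it was called higher spike-in scaled. TAF10 was the smallest of the rises (0.34 ± 0.10, not called with arrays centred on the median of all genes). ACT1 read 13.05, 12.85, 12.58, 12.68 and 12.58 in Rho0 and 10.64, 10.27, 10.98, 10.59 and 10.25 in WT low density. The genes deleted in BY4741, HIS3, LEU2, MET17 and URA3, gave a difference of -0.11, -0.20, -0.11 and 0.0, and none was called, though all 4 were called higher spike-in scaled. URA3 and MET17 lay under background in both groups, but 2 of the 4 did not: HIS3 read 5.87 ± 0.12 in Rho0 and 5.98 ± 0.08 in WT low density, and LEU2 2.70 ± 0.16 and 2.90 ± 0.21. The mean level over 23 sporulation genes ran from 4.12 to 4.16 in Rho0 and from 3.76 to 3.96 in WT low density arrays, with 20 and 17 of the genes above background. The part of other cell states in the results was not tested.

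The difference also followed the length of the coding sequence. Genes were divided into 10 equal classes by that length. In the class with the shortest coding sequences (51 to 453 bases) 31.1% rose and 39.4% fell, with a median difference of -0.09. In the class with the longest (2829 to 14733 bases) 66.5% rose and 7.54% fell, with a median of 0.65. The median climbed at nearly every step between them, and Spearman's rho across 5449 genes, which are not independent replicates, was 0.18. For Rho0 minus WT high density the median was -0.21 in the shortest class and 0.15 in the longest, without a steady climb between. For WT low density minus WT high density it was -0.14 and -0.50. The 25S 5′ probe set and the poly-A spike-ins moved between Rho0 and WT low density, and their part in the length trend was not tested. The median coding length was 444 bases in the cytochrome bc1 list and 771 in that of cytosolic ribosomal proteins. With arrays centred within each class of length, 7 of 9 cytochrome bc1 genes were called lower and 0 higher, and 62 of 127 cytosolic ribosomal protein genes lower and 9 higher.

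**Figure D5:**
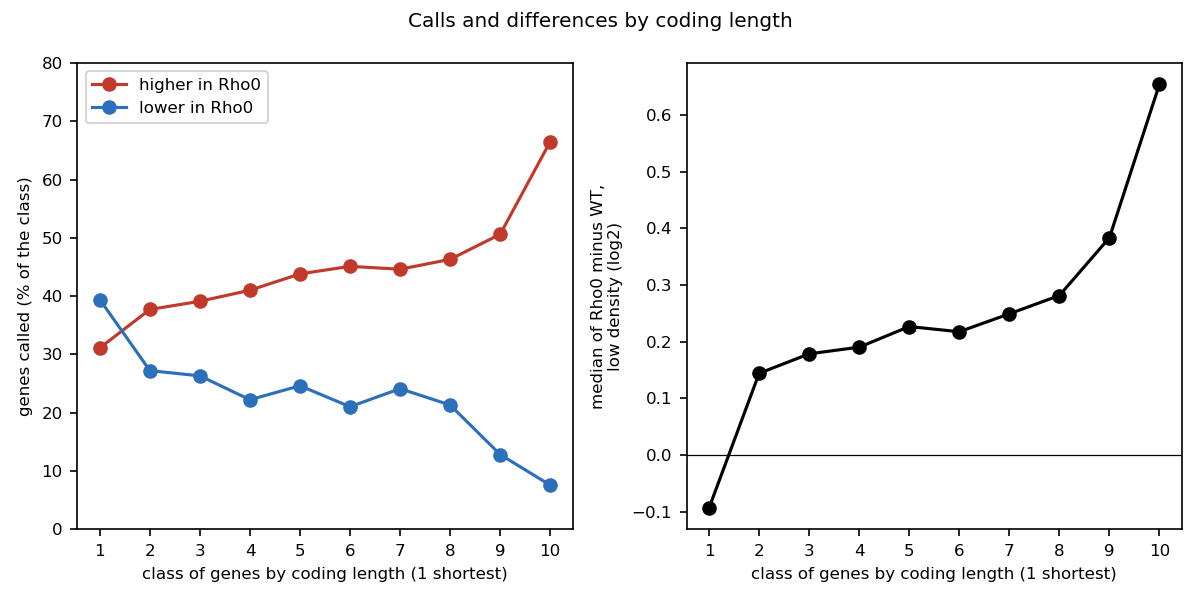
Share of genes called in each direction (left, % of the class) and median difference between Rho0 and WT low density (right, log2) in 10 equal groups of genes by coding length, shortest first. The share of rises runs from 31.1% to 66.5% and the share of falls from 39.4% to 7.54%.

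Genes near chromosome ends rose more often. Among the 5 measured genes nearest each end, 160 in all, 58.1% rose and 16.2% fell, against 44.2% and 22.9% of the other genes, and 45 of the 160 had probe sets that may bind related genes. With 10 genes per end the shares were 50.6% and 22.5%. No test was made of either difference. In all, 155 genes are given here by name, of which 133 were called, with a limma adjusted p of at most 0.0166, and 132 of those called had groups whose arrays did not overlap. Many were named because they were called and did not overlap, so these counts follow from the choice. Of all genes, 67.3% were called and 57.2% did not overlap.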

How the data were processed

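The 15 samples were each hybridized to an Affymetrix Yeast Genome 2.0 array. The authors deposited log2 signals, made with RMA in Affymetrix Expression Console per the submitters' processing notes, whose versions and genome annotation are not given in the sources used here. RMA usually includes a quantile normalization over all probes, which can hide a shift shared by most genes. Of 10928 probe sets, 5498 were named to S. cerevisiae genes through the platform annotation, and 1 probe set per gene, the one with the highest mean over 15 arrays, gave 5449 genes. The background level, 2.56, was the 95th percentile of the means of 1746 S. pombe probe sets, which should find no target here. Lengths and neighbours came from RefSeq.

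Group means of all 15 arrays were fitted with limma 3.58.1 in R 4.3.3 (lmFit, eBayes, 12 residual degrees of freedom), tested first on simulated data. The median SE of the difference was 0.15, and 5 arrays per group limit the precision. Array controls were compared by exact permutation tests. Alternatives were other scalings (quantile, S. pombe median, S. cerevisiae median, poly-A spike-ins, centring by coding length), other limma settings, gene filters, a replicate block and each array left out. Named were the 25 largest rises and falls, the 4 largest called changes of each of 60 gene lists, all members of lists of up to 17 and a list of key genes, and the text gives a selection of these made with their values known. Members and lists were chosen with earlier results of these data known. Sequences were not used here.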

Additional observations from a re-analysis of the deposited data

Results flagged for a closer look

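With 5 arrays per group, an array stood apart where its gap to the nearest of the others, divided by the range of its group, passed Dixon's critical value of 0.71. Of 324 groups of arrays, over the genes named above and the control measures, 26 had such an array, against about 1 in 20 by chance. Rho0 replicate 1 was the array in 13 of them. Without it 3524 genes were called in place of 3665. Levels below are log2 signals.

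Rho0 replicate 1 lay above the others of its group for ABF2 (6.03 against 5.18 to 5.41, ratio 0.723), CAT8 (9.84 against 9.50 to 9.58, ratio 0.768), CPA1 (4.72 against 3.50 to 3.83, ratio 0.726) and GUT1 (9.57 against 8.84 to 9.05, ratio 0.720). The same array lay above for HAP4 (9.95 against 8.73 to 9.02, ratio 0.764), HSP82 (11.09 against 10.23 to 10.41, ratio 0.789), IDH2 (8.05 against 7.20 to 7.30, ratio 0.885) and PUP2 (7.29 against 6.48 to 6.56, ratio 0.900). The same array lay above for STE2 (7.93 against 7.29 to 7.36, ratio 0.898) and SUC2 (13.0 against 12.72 to 12.79, ratio 0.756). Rho0 replicate 1 lay below the others of its group for COX5A (10.71 against 11.32 to 11.47, ratio 0.810), ICL1 (7.97 against 8.14 to 8.18, ratio 0.804) and MEP2 (6.33 against 6.94 to 7.10, ratio 0.784). Rho0 replicate 2 lay above the others of its group for PHO89 (6.65 against 6.40 to 6.47, ratio 0.719). Rho0 replicate 3 lay below the others of its group for CCT4 (10.03 against 10.09 to 10.11, ratio 0.792) and RTG2 (2.64 against 2.98 to 3.09, ratio 0.763). Rho0 replicate 4 lay below the others of its group for GDH1 (5.23 against 5.41 to 5.47, ratio 0.756). Rho0 replicate 5 lay above the others of its group for PDR5 (12.10 against 11.88 to 11.94, ratio 0.716) and UBP6 (7.59 against 7.35 to 7.40, ratio 0.807). Rho0 replicate 5 lay below the others of its group for BLM10 (10.22 against 10.51 to 10.51, ratio 0.971). WT low density replicate 1 lay above the others of its group for FBP1 (9.39 against 8.66 to 8.86, ratio 0.718) and MET2 (8.22 against 7.09 to 7.39, ratio 0.731). WT low density replicate 2 lay above the others of its group for COX5B (8.91 against 8.61 to 8.67, ratio 0.808). WT low density replicate 2 lay below the others of its group for ARC15 (8.26 against 8.65 to 8.72, ratio 0.841). WT low density replicate 3 lay above the others of its group for GSY2 (9.04 against 8.75 to 8.80, ratio 0.816) and PET54 (5.76 against 4.97 to 5.19, ratio 0.725).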

How the results depend on the processing

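Apart from the 2 settings given next, the number of called genes, 3665, ran from 3449 with quantile normalization of the S. cerevisiae genes to 4057 with array weights, and from 3506 to 3592 with single arrays left out. Against a 1.5-fold change (limma's treat) it was 1596, 1029 higher and 567 lower. Scaling to the poly-A spike-ins gave 4419, 3955 higher and 464 lower, in place of 2430 and 1235. The median of all genes was 0.06 after quantile normalization, 0.35 scaled to the S. pombe median, -0.01 to the S. cerevisiae median or by coding length, a choice made after seeing the data, and 0.94 to the spike-ins. The control differences kept their direction without any single array, and that of the hybridization controls, from -0.48 to -0.29, passed the threshold in 3 of those fits. Of the named genes, spike-in scaling turned ACS1 to 0.50, DAL5 to 0.56, FET3 to 0.48, GUT1 to 0.56, ICL1 to 0.51, PDR3 to 0.63, UBI4 to 0.47, POC4 to 0.22, RPN4 to 0.15, HIS3 to 0.57, LEU2 to 0.48, MET17 to 0.57 and MF(ALPHA)1 to 0.67. Centring by coding length turned ADR1 to -0.65, and centring on the median of all genes turned URA3 to -0.26. No other setting turned a named gene with a call. The added constant itself accounts for the spike-in changes, and which scale is right was not tested.

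A replicate block gave 3769 called genes. Same-numbered Rho0 and WT low density arrays deviated together with r from -0.05 to 0.34, and those with different numbers with r from -0.30 to 0.19. These ranges overlap but do not exclude a pairing. The numbers were not taken to pair the samples. The planned count of promoter motifs was not run. Probe sets near background limit what can be read: 353 genes were above it in neither group.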
